A study of Homo sapiens with 2 samples.

Results

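The genes described here are listed as spanning common fragile sites that aphidicolin induces. They were chosen by symbol from a list of 31 names, and 30 of them are rows of the deposited table, out of 17912 entries in all. CCSER1, the gene at FRA4F, was not listed in it. RNA was measured in U2OS, an established human osteosarcoma line, after 18 h in 0.3 µM aphidicolin. Both libraries belong to this single group of asynchronous cells, with no label naming the culture each was made from. No untreated library was analysed here, so every value is a level under aphidicolin and its response to the drug was not measured.

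Common fragile sites are regions of normal chromosomes that show gaps and breaks at metaphase when DNA synthesis is slowed but not stopped. Many of them coincide with very long genes, in which replication can still be incomplete when cells enter mitosis. Aphidicolin blocks the replicative DNA polymerases and is the agent classically used to induce these sites. Transcription across long genes is studied at fragile sites because it can displace replication origins and collide with forks. The table holds RNA levels only, so fragility itself could not be checked in it. Site names such as FRA3B are given for 22 of the 31 genes as background and do not come from the data. TENM3, CDH13, PTPRG, CSMD1, LPP, FOXP1, ESRRG, PDE4D and NAALADL2 were given no site name. They are called fragile site genes below only because they are on the list.

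The 30 listed genes were all long. In the GENCODE annotation their spans ran from 631 kb for FOXP1 to 2305 kb for CNTNAP2, with a median of 1185 kb against 30.6 kb over all entries. Exons made up a median of 0.972% of the span. The longest intron had a median of 323 kb and reached 779 kb in WWOX. Exon number ran from 5 in LSAMP to 91 in LRP1B. At most 8.46% of the exonic bases of any of the 30, in DPYD, were shared with another gene on either strand.

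The sequence just before the annotated start is shown for the 2 highest and the 2 lowest genes that have an entry in RefSeq's promoter table. It is also shown for FHIT, at FRA3B, and its neighbour PTPRG, which were added after their levels were seen. Each run is 250 bases long on the gene's own strand in GRCh38.p14, and capitals mark CpG dinucleotides. TENM3 lies at chr4:182143713-182143962 on the plus strand and EXOC4 at chr7:133252828-133253077 on the plus strand. NAALADL2 lies at chr3:174859084-174859333 on the plus strand and DMD at chrX:33339389-33339638 on the minus strand. FHIT lies at chr3:61251453-61251702 on the minus strand and PTPRG at chr3:61561321-61561570 on the plus strand. The NAALADL2 window belongs to a start 421 kb inside the annotated gene, and the other 5 windows end within 1 kb of the outer start.
TENM3: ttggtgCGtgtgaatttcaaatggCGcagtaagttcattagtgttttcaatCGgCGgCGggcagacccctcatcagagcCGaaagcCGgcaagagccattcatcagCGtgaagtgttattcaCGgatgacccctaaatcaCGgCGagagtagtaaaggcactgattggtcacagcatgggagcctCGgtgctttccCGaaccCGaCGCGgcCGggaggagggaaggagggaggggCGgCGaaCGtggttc
EXOC4: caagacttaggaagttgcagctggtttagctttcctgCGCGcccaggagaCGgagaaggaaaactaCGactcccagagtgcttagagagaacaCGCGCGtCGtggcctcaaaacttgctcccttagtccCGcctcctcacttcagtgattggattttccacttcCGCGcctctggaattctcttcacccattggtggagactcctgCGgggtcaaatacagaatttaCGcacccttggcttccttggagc
PTPRG: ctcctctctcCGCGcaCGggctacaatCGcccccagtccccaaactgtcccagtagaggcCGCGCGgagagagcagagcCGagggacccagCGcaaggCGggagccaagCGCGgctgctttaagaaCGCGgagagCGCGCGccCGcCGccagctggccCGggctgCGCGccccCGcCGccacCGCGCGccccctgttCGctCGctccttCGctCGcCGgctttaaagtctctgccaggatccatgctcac
FHIT: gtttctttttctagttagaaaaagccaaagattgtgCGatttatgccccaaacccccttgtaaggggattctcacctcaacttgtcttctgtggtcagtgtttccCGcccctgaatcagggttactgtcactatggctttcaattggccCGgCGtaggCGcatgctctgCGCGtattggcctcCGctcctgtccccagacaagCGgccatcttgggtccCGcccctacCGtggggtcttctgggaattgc
NAALADL2: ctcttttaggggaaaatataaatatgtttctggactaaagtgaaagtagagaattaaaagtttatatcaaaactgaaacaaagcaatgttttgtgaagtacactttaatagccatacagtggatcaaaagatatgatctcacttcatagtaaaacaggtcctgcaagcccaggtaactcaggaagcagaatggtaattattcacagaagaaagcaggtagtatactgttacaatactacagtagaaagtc
DMD: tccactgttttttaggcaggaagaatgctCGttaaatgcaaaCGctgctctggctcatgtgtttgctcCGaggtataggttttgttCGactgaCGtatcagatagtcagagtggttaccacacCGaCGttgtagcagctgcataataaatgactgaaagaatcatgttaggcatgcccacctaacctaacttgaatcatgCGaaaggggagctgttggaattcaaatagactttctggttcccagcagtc

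The windows of TENM3, EXOC4 and PTPRG held 20, 13 and 32 CpG dinucleotides, those of FHIT and DMD held 11 and 8, and that of NAALADL2 held 0. Of the 30 genes, 26 had a RefSeq window and 20 had one within 1 kb of the outer start. In these 20 the median ratio of observed to expected CpG was 0.783, against 0.794 over 11389 entries with such a window. A ratio of at least 0.6 was found in 8 of 8 genes at or above 1 RPKM and in 8 of 12 below it, against 74.3% of all windows. TATAAA, searched on both strands, was in 0 of the 20 windows and in 6.43% of all. Among the 6 windows at inner starts, that of NAALADL2, shown here, holds it. Across the 20 genes Spearman's rho of the CpG ratio and the level was 0.42, a description over genes of the same libraries. Several RefSeq starts were given for 13 of the 26 genes, with 9 for DLG2, 8 each for ESRRG and PDE4D and 7 for DMD, and which start was used was not measured.

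Levels are in RPKM, reads per kilobase of exon scaled to the size of the library, which allows comparison between genes. The libraries held 13227805 and 13020149 reads, and reads per gene were recovered from the RPKM. A gene was counted as expressed at 1 RPKM or more in both libraries. That held for 14 of the 30 fragile site genes, against 66.7% of all entries and 41.7% of the 276 other genes of at least 500 kb. At 1 CPM, which does not divide by length, 24 of the 30 (80%) passed against 78.1% of all entries. The lower share was thus not seen on that scale, but the scale favours genes with more exonic sequence. The median exonic length of the 30 genes was above that of all entries, so 1 CPM was a looser limit for them. Their median in CPM was still below that of all entries. At 5 RPKM or more there were 4, TENM3, NEGR1, EXOC4 and PTPRG, against 42.8% of all entries. The median was 0.683 RPKM, beside 0.647 RPKM for the other genes of that span and 3.53 RPKM over all entries. In bulk RNA, fewer cells with a transcript and less of it per cell cannot be told apart. Together the 30 genes took 0.0917% of the reads in replicate 1 and 0.0913% in replicate 2.

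**Figure D1:**
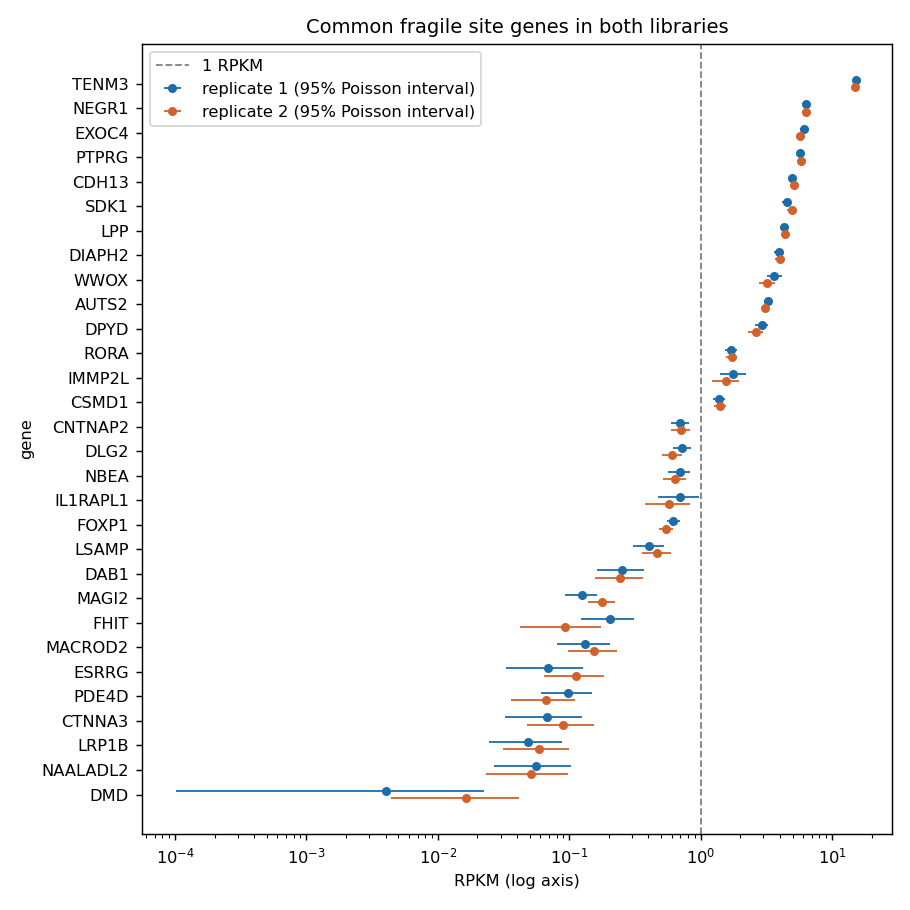
RPKM of each of the 30 listed fragile site genes (log axis) in replicate 1 and replicate 2, with exact 95% Poisson intervals from recovered reads and a dashed line at 1 RPKM. The 14 genes above the line have narrow intervals, and the interval of DMD in replicate 1, from 1 read, is the widest.

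Of 10 genes for proteins at the cell surface 6 were expressed, and the class median was 3.05 RPKM. This and the class counts that follow stand beside 66.7% of all entries and 41.7% of other genes of at least 500 kb, and with 4 to 10 genes a class they are descriptions. TENM3 encodes a teneurin, a transmembrane protein that guides contacts between neurons, and was measured at 15.2 RPKM in replicate 1 and 14.9 in the other library, the order kept below. It ranked 3480 of 17912 entries, and its libraries overlapped those of no other fragile site gene. NEGR1, at FRA1L, encodes an adhesion molecule anchored in the membrane by lipid and was at 6.28 and 6.37 RPKM. PTPRG, a receptor tyrosine phosphatase gene, was at 5.73 and 5.83 RPKM. CDH13 encodes T-cadherin, which lacks the usual cytoplasmic tail, and was at 4.95 and 5.13 RPKM. SDK1, at FRA7B, encodes sidekick, a synaptic adhesion protein, and was at 4.50 and 4.91 RPKM. CSMD1, a complement control gene and the only expressed gene among the 5 longest, was at 1.38 and 1.40 RPKM.

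The other 4 surface genes were below 1 RPKM in both libraries. CNTNAP2, at FRA7I, encodes a neurexin-like protein of axons and stood at 0.697 and 0.703 RPKM from 151 and 150 reads. IL1RAPL1, at FRAXC, encodes a synaptic relative of the interleukin receptors and stood at 0.690 and 0.573 RPKM. LSAMP, at FRA3L, belongs to the same adhesion family as NEGR1 and stood at 0.404 and 0.463 RPKM. LRP1B, at FRA2F, encodes a giant lipoprotein receptor relative and stood at 0.0488 and 0.0586 RPKM from 11 and 13 reads. The Poisson intervals of CNTNAP2 and IL1RAPL1 overlapped in both libraries, while LRP1B was lower than the other 3.

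Scaffold, cytoskeletal and membrane traffic genes were expressed in 3 of 9 cases. EXOC4, at FRA7H, encodes a subunit of the exocyst, which tethers secretory vesicles, and stood at 6.07 and 5.70 RPKM. LPP, a zyxin-like gene of focal adhesions, was at 4.27 and 4.36 RPKM. DIAPH2, at FRAXL, encodes a formin that assembles actin filaments and was at 3.92 and 4.03 RPKM. All 3 have general roles in cell structure or secretion, and a link between role and level was not tested.

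The remaining 6 of that class include several genes best known in neurons or muscle. DLG2, at FRA11F, encodes a postsynaptic scaffold and stood at 0.724 and 0.607 RPKM. NBEA, neurobeachin at FRA13A, acts in membrane traffic and stood at 0.690 and 0.636 RPKM. DAB1, at FRA1B, encodes the reelin adaptor and stood at 0.250 and 0.244 RPKM from 25 and 24 reads. MAGI2, a junction scaffold gene at FRA7E, had 52 and 73 reads, or 0.124 and 0.177 RPKM. CTNNA3, at FRA10D, encodes the alpha-catenin of heart and testis and stood at 0.0678 and 0.0895 RPKM. DMD, the dystrophin gene at FRAXC, was lowest of the 30 with 1 and 4 reads over 18.9 kb of exon. Its mean was 0.0101 ± 0.0087 RPKM (SD, n = 2), and only 0.201% of all entries were lower.

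Of 4 nuclear regulators 2 were expressed. AUTS2, at FRA7J, encodes a protein found with Polycomb complexes and stood at 3.24 and 3.11 RPKM. RORA, at FRA15A, encodes an orphan nuclear receptor and stood at 1.69 and 1.72 RPKM. FOXP1, a forkhead factor gene, had 301 and 260 reads, yet with 36.7 kb of annotated exon this was 0.620 and 0.544 RPKM. ESRRG, an oestrogen-related receptor gene, stood at 0.0693 and 0.113 RPKM from 10 and 16 reads. FOXP1 therefore had more reads than IMMP2L and fell below 1 RPKM on a per-length scale.

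The enzymes held the 2 genes at the most studied sites, and they differed. WWOX, an oxidoreductase gene at FRA16D, stood at 3.63 and 3.22 RPKM from 234 and 204 reads. FHIT, at FRA3B, encodes a hydrolase of diadenosine polyphosphates and stood at 0.202 and 0.0925 RPKM from 20 and 9 reads. Its exon length recovered from the RPKM was 7472 bases, against 5439 in the annotation, while 29 of the 30 genes came within 10%. The exact 95% Poisson interval of FHIT was 0.124 to 0.313 RPKM in replicate 1 and 0.0423 to 0.176 RPKM in replicate 2. Those of WWOX began at 3.18 and 2.79 RPKM, so the levels of these 2 genes lay far apart in both libraries. Such intervals cover counting error only, and reads amplified by PCR are not independent molecules.

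DPYD, at FRA1E, encodes the enzyme that starts pyrimidine breakdown and stood at 2.90 and 2.62 RPKM. IMMP2L, at FRA7K, encodes a peptidase of the inner mitochondrial membrane and stood at 1.77 and 1.55 RPKM. MACROD2, at FRA20B, encodes a hydrolase that removes ADP-ribose and stood at 0.132 and 0.155 RPKM. PDE4D, a cyclic AMP phosphodiesterase gene, stood at 0.0978 and 0.0662 RPKM. NAALADL2, named for its likeness to a brain peptidase, stood at 0.0558 and 0.0510 RPKM. With WWOX and FHIT these make a class of 7 genes, of which 3 were expressed. NAALADL2 was placed in it by that likeness only, and enzyme activity of its product was not examined.

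When the 30 genes were placed in order of their mean, the libraries of adjacent genes overlapped in 12 of 29 steps and stayed apart in 17. Overlaps joined EXOC4 to PTPRG, WWOX to AUTS2 and RORA to IMMP2L among expressed genes. From CNTNAP2 through DLG2, NBEA and IL1RAPL1 to FOXP1 each gene overlapped the next, so adjacent ranks among these 5 were not resolved. The limit of 1 RPKM fell between CSMD1, at 1.38 RPKM in its lower library, and CNTNAP2, at 0.703 RPKM in its higher one. Means under 0.2 RPKM rest on 73 reads or fewer a library.

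The libraries were compared on recovered reads with a 2-sided exact binomial test, adjusted by Benjamini-Hochberg over 11944 expressed entries. It called 0 of the 14 expressed fragile site genes, against 1.72% of all tested entries, and 0 of the 14 had an unadjusted p under 0.05. The lowest adjusted p in this exact test was 0.481, for SDK1, whose log2 ratio (replicate 2 over replicate 1) was 0.13 with a counting SE of 0.07. Among the 14 genes the log2 ratio stayed between -0.18 for IMMP2L and 0.13 for SDK1, 6 being higher in replicate 1 and 8 in replicate 2. The test compares these libraries, not conditions.

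Genes below 1 RPKM varied more. For FHIT the log2 ratio was -1.12 ± 0.58 and for MAGI2 it was 0.52 ± 0.26, each with its counting SE. With no lower limit on the level, the exact binomial test gave MAGI2 an unadjusted p of 0.0491 and FHIT one of 0.0619, and the adjusted values were 0.541 and 0.587. That test called 0 of 30 genes, against 175 of 17912 entries, so no library difference was called for FHIT. The smallest difference it could call at this depth was not worked out.

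**Figure D2:**
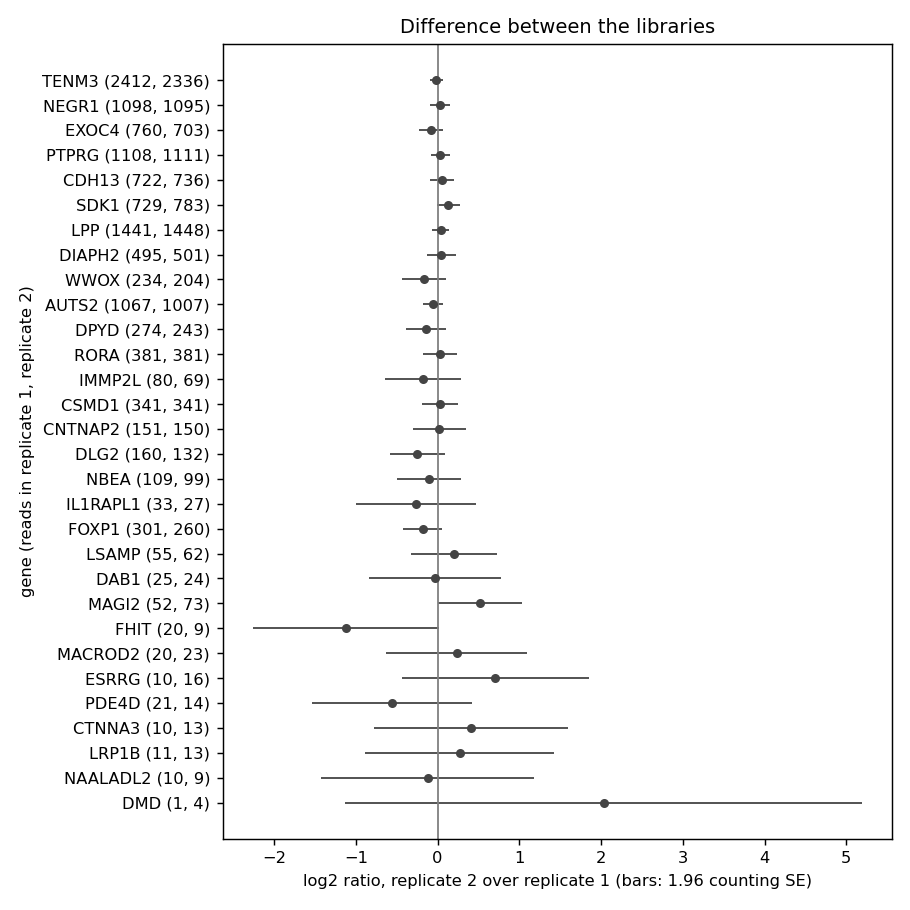
Log2 ratio of replicate 2 over replicate 1 for each of the 30 genes, with bars for 95% counting intervals and the reads of both libraries beside each name. Ratios lie close to 0 for genes with many reads, and FHIT (20 and 9 reads) and DMD (1 and 4 reads) have the largest ratios.

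Level and span ran in opposite directions among the 30 genes. Of 13 genes under 1000 kb 10 were expressed, with a median of 3.97 RPKM. Of 17 genes of 1000 kb and over 4 were expressed, CDH13, WWOX, AUTS2 and CSMD1, with a median of 0.247 RPKM. Among other genes of at least 500 kb the same classes gave 97 of 230 (42.2%) and 18 of 46 (39.1%). Spearman's rho of span and level was -0.54 over the 30 genes and -0.09 over the 276 others, both as descriptions across genes of the same libraries. At 1 CPM, reads scaled to library size with no division by length, 12 of 13 (92.3%) and 12 of 17 (70.6%) fragile site genes passed, against 78.1% of all entries. The other genes of at least 500 kb gave 186 of 230 (80.9%) and 29 of 46 (63.0%) on that scale, so a lower share in the longer class was seen in both sets there. This split was looked for after the levels were known.

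**Figure D3:**
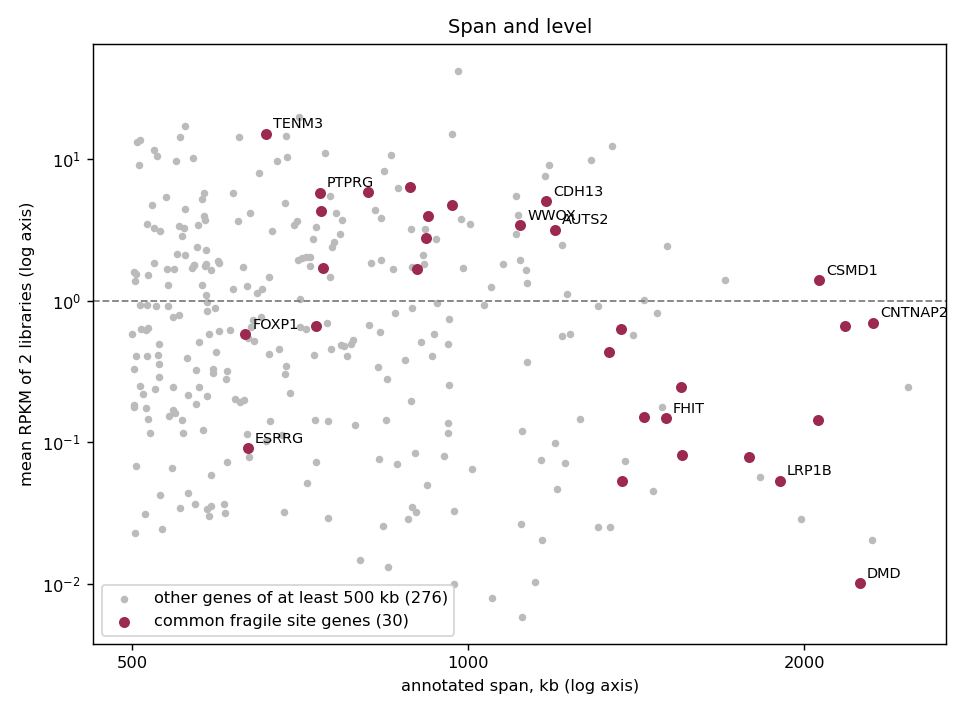
Mean RPKM of 2 libraries against annotated span (both log axes) for the 30 fragile site genes and 276 other genes of at least 500 kb, with a dashed line at 1 RPKM. Most fragile site genes under 1000 kb lie above the line, with FOXP1, NBEA and ESRRG below it, and DMD lies lowest of the 30.

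FHIT and PTPRG start 310 kb apart and are transcribed away from each other on chromosome 3, from 59749310 to 61251459 and from 61561569 to 62297613. PTPRG was 39.2 times higher in mean RPKM (5.78 ± 0.076 against 0.147 ± 0.078, SD, n = 2). The ratio was 28.3 in replicate 1 and 63.1 in replicate 2, with 20 and 9 reads of FHIT. On the other side of FHIT the next coding gene, C3orf67, was at 1.37 RPKM. IL1RAPL1 and DMD share FRAXC with 1141 kb between them, and IL1RAPL1 was at 0.632 RPKM beside 0.0101 RPKM for DMD. WWOX and CDH13 lie 3414 kb apart on chromosome 16, at 3.43 and 5.04 RPKM. The means of WWOX and CDH13 thus differed by 1.47 times, far less than those of the other pairs.

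The next coding genes on both sides were examined for all 30. Of 60 such neighbours 53 were listed and 39 were expressed. Beside the 14 expressed fragile site genes it was 20 of 27 listed neighbours, and beside the 16 below the level it was 19 of 26, with 66.7% of all entries as background. The next coding gene could lie far away, as distances differed widely. TENM3 lay between AGA at 8.16 RPKM, 4701 kb away, and the deoxycytidylate deaminase gene DCTD at 23.6 RPKM, 87.0 kb away. NEGR1 lay between ZRANB2 at 28.8 RPKM and LRRIQ3 at 0.144 RPKM, and EXOC4 between CHCHD3 at 13.5 RPKM and LRGUK at 0.436 RPKM. CDH13 lay between MPHOSPH6 at 18.1 RPKM and HSBP1 at 12.3 RPKM, and SDK1 had FOXK1 at 9.25 RPKM on its side of higher coordinates. LPP lay between BCL6 at 6.09 RPKM and TPRG1 at 0.132 RPKM. WWOX lay between CLEC3A at 0.203 RPKM and MAF, a transcription factor gene, at 8.76 RPKM. C3orf14, beyond PTPRG, was not listed.

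Genes under 0.1 RPKM also had expressed neighbours. PDE4D at 0.0820 RPKM lay 74.8 kb from DEPDC1B at 20.6 RPKM, with RAB3C at 0.0316 RPKM on the other side. CTNNA3 at 0.0786 RPKM lay 2287 kb from REEP3 at 11.4 RPKM and 100 kb from DNAJC12 at 1.57 RPKM. NAALADL2 at 0.0534 RPKM lay 152 kb from NLGN1 at 0.886 RPKM and 1209 kb from TBL1XR1 at 6.84 RPKM. LRP1B lay 1451 kb from NXPH2 at 3.53 RPKM and 746 kb from KYNU at 0.450 RPKM. ESRRG had GPATCH2 at 3.46 RPKM on its side of higher coordinates, 289 kb away. The neighbours of DMD, FTHL17 and FAM47A, were not listed. For these genes the next coding genes were thus both expressed and barely detected ones, some of them over 1000 kb away.

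Some fragile site genes hold or overlap another coding gene. FLRT3 lies within MACROD2 and was at 0.632 ± 0.0901 RPKM (SD, n = 2), above its host at 0.143 RPKM. MAB21L1 within NBEA was at 0.605 ± 0.0811 RPKM and RPA4 within DIAPH2 at 0.439 ± 0.0642 RPKM (SD, n = 2). OMA1, which overlaps DAB1 on the same strand, was at 2.43 ± 0.248 RPKM (SD, n = 2) beside 0.247 RPKM for DAB1. FLRT3 and MAB21L1 lie on the strand opposite their hosts, and whether the counting used strand is not stated. LRRN3 within IMMP2L and LRRTM3 within CTNNA3 were not listed.

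**Figure D4:**
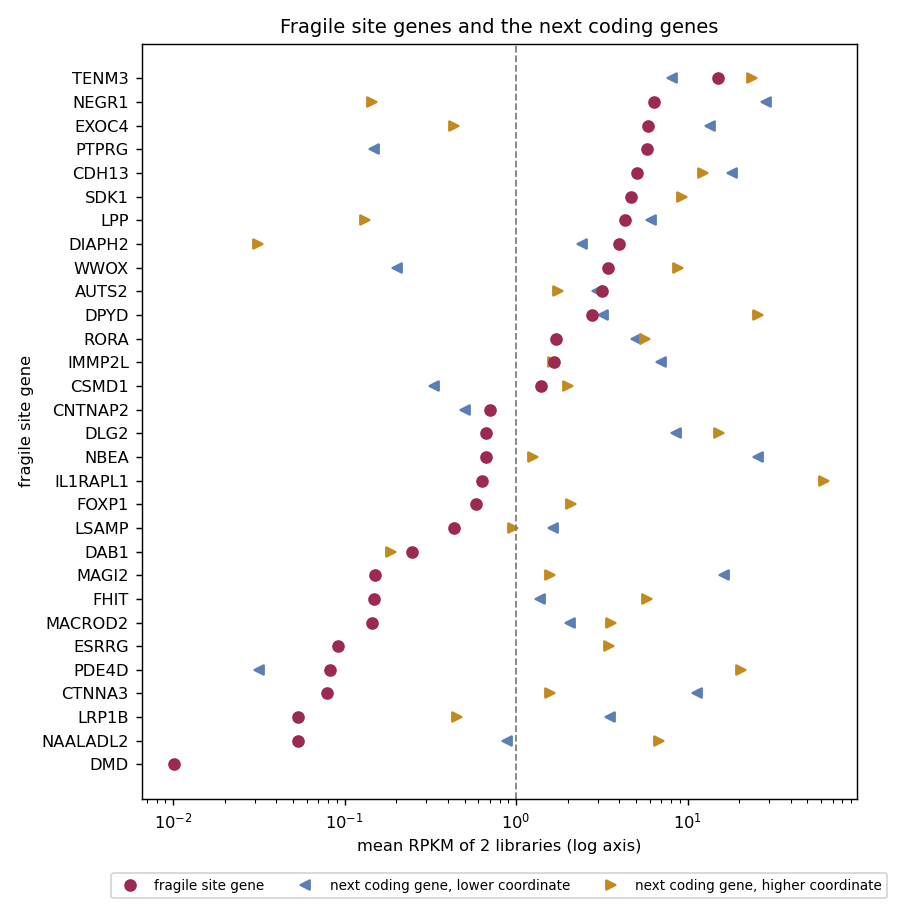
Mean RPKM (log axis) of each fragile site gene and of the next coding gene at lower and at higher coordinates, with a dashed line at 1 RPKM. PDE4D, CTNNA3 and NAALADL2 lie below 0.1 RPKM with a neighbour above 6 RPKM, and neighbours that were not listed or are not reported here are left out.

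Most fragile site genes belong to families, and the levels of 51 listed genes were set beside theirs as relatives. They include NIT1, whose product is joined to that of FHIT in some animals and which is no family relative, and without it, a count added after the data were seen, 34 of 50 were expressed. Of all 51, 35 (68.6%) were expressed, near the 66.7% of all entries. It was 29 of 36 for relatives under 500 kb, beside 68.7% of all genes under 500 kb. For longer relatives it was 6 of 15, near the 41.7% of other genes of at least 500 kb. Each of the 16 fragile site genes below the level had an expressed relative, as did 8 of the 10 expressed ones with a listed relative, RORA and CSMD1 being the exceptions. Of the 26 fragile site genes with a listed relative 22 were below at least 1 relative, the exceptions being IMMP2L, RORA, SDK1 and CSMD1. Larger families offer more relatives, and these counts were not tested.

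Several of the lowest genes had a relative with a similar role at a higher level. UTRN, for utrophin, which can take dystrophin's place at the membrane, was at 10.0 and 10.3 RPKM from 1939 and 1959 reads, beside 1 and 4 reads for DMD. CTNNA1, for the alpha-catenin of most epithelial and mesenchymal junctions, was at 40.6 and 39.5 RPKM, 510 times the mean of CTNNA3. LRP1, the ubiquitous relative of LRP1B, was at 18.3 and 18.1 RPKM, 339 times its mean. PDE4A was at 8.26 and 8.56 RPKM and PDE4B at 2.46 and 2.10 RPKM, the latter below the median of 3.53 RPKM over all entries. Other relatives of these low genes were lower, with DRP2, of the DMD family, at 0.736 RPKM. For NAALADL2 the relatives were NAALAD2 at 1.90 RPKM and NAALADL1 at 0.0663 RPKM. UTRN and PDE4B span 567 kb and 582 kb, so a long relative could be expressed too.

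In other families too a relative stood above the fragile site gene. DLG1, DLG3 and DLG4 stood at 6.65, 3.43 and 4.60 RPKM beside 0.665 RPKM for DLG2. MAGI1 and MAGI3 stood at 4.89 and 8.54 RPKM beside 0.151 RPKM for MAGI2. ESRRA was at 8.80 RPKM, DAB2 at 11.3 RPKM, LRBA at 5.45 RPKM, MACROD1 at 4.83 RPKM, CNTNAP1 at 10.3 RPKM and IL1RAP at 3.64 RPKM, while FOXP4 was at 28.4 and 27.6 RPKM in the libraries. HINT1, which like FHIT carries a histidine triad, was at 90.4 RPKM, and NIT1, whose product is fused to that of FHIT in flies and worms, was at 8.31 RPKM. CCSER2 was at 13.7 RPKM, while CCSER1 was not listed. Genes of these families that stayed low included CTNNA2 at 0.0452 RPKM, OPCML at 0.121 RPKM and FOXP2 at 0.0722 RPKM, which span 1464 kb, 1118 kb and 607 kb.

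Among expressed fragile site genes the relatives were mixed. TENM2 was higher than TENM3, at 41.5 and 41.9 RPKM over 979 kb, while TENM4 was at 0.527 RPKM and TENM1 at 0.0355 RPKM. NTM, of the adhesion family that holds NEGR1 and LSAMP, was at 15.1 RPKM over 966 kb. DIAPH1 was at 36.3 RPKM and DIAPH3 at 7.72 RPKM beside 3.97 RPKM for DIAPH2. ZYX and TRIP6 stood at 84.4 and 34.2 RPKM beside 4.31 RPKM for LPP. CDH2 was at 24.0 RPKM and CDH11 at 2.66 RPKM beside 5.04 RPKM for CDH13. The brain-enriched RORB was at 0.729 RPKM, below RORA, and CSMD2 and CSMD3 were at 0.766 and 0.561 RPKM, below CSMD1.

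**Figure D5:**
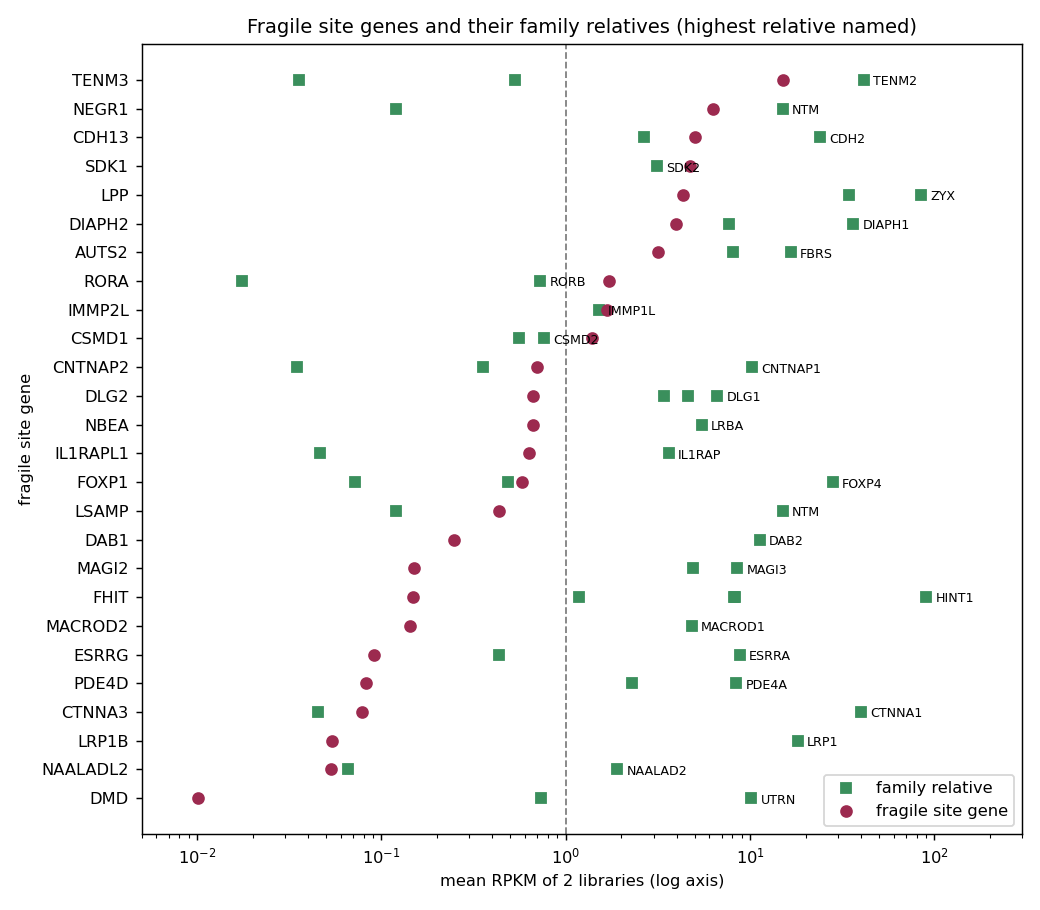
Mean RPKM (log axis) of the 26 fragile site genes with a listed family relative (circles) and of their relatives (squares, NIT1 included for FHIT), the highest relative being named, with a dashed line at 1 RPKM. For the 16 fragile site genes below the line at least 1 square lies to its right.

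Partners of 4 fragile site genes were examined from lists, and the counts expressed stand beside 66.7% of all entries. All 8 other exocyst subunit genes were expressed, from 3.60 RPKM for EXOC6 to 16.2 RPKM for EXOC5, and EXOC4 at 5.89 RPKM lay within that range. Of 11 genes for the complex around dystrophin 7 were expressed, led by the dystroglycan gene DAG1 at 34.9 RPKM, while the muscle sarcoglycan gene SGCA was at 0.0622 RPKM from 2 reads in each library. The latrophilins are receptors for teneurins, and ADGRL1 and ADGRL2 were at 15.5 and 14.4 RPKM while ADGRL3 was at 0.384 RPKM. After DPYD in pyrimidine breakdown come DPYS and UPB1, which were at 0.0200 and 0.0840 RPKM, the former from 1 read in each library. UPP1, for a uridine phosphorylase, was at 17.4 RPKM and TYMP at 0.645 RPKM.

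Factors that protect or repair fragile sites were expressed in 29 of 30 cases, with a median of 8.27 RPKM, beside 66.7% and a median of 3.53 RPKM over all entries. They included ATR, the kinase that senses stalled forks, at 2.59 RPKM and FANCD2, which gathers at fragile sites, at 12.8 RPKM. POLD3, a polymerase subunit needed for DNA synthesis in mitosis, was at 16.6 RPKM, and the nuclease gene MUS81 was at 5.77 RPKM. TOP1 was highest at 38.8 RPKM. The exception, RNASEH2A, was at 0.491 RPKM, and 30.8% of its exonic bases are shared with another gene.

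Marker lists were read beside the neuronal and muscle genes, and their counts stand beside 66.7% of all entries. Osteoblast and mesenchymal markers were expressed in 7 of 8 listed cases and summed to 764 and 771 RPKM. Most of that sum came from SPARC at 280 RPKM, VIM at 249 RPKM and COL1A1 at 209 RPKM, which many mesenchymal cells express. The osteoblast gene RUNX2 was at 8.55 RPKM and BGLAP, for osteocalcin, at 0.277 RPKM, while SP7 and IBSP were not listed. Muscle markers were expressed in 0 of 8 listed cases and summed to 1.30 and 1.71 RPKM, and MYOG was not listed. Neuronal markers were expressed in 8 of 12 cases, the same share as all entries, and summed to 70.9 and 69.7 RPKM. Of that sum ENO2 gave 35.3 RPKM, NEFL 16.1 RPKM and SNAP25 5.73 RPKM. RBFOX3, GAD1 and NEFM were below 1 RPKM, as was STMN2 at 0.0485 RPKM. Epithelial markers were expressed in 5 of 7 listed cases, endothelial markers in 2 of 7 and haematopoietic markers in 1 of 5. The share of these markers in the levels of the fragile site genes was not tested.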

How the data were processed

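RNA of U2OS cells was measured in 2 libraries of 1 group. Per the file headers, the authors deposited RPKM values for each library in a single table. The submitters' processing notes name Trim Galore, HISAT2 and featureCounts, and the builds hg38 and GRCh38.p13. Their versions, the annotation, strand use and filters were not given in the sources used here.

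Rows of 58 symbols with more than 1 row (194 rows) were left out, and symbols sharing both values were taken once, which left 17912 entries. The table holds no value at 0. The most common ratio of the columns, shared by 1024 rows taken to have equal reads, gave totals of 13227805 and 13020149 reads. With the columns scaled by these totals, their ratio was a fraction of integers for 100% of symbols, to a tolerance of 2e-13. For each of the 30 genes the ratio of the columns, scaled by these totals, gave its reads up to a whole factor. The factor was chosen so that the gene's length came closest to GENCODE release 29. It was 1 for 17 of the 30 genes and larger for 13, so the reads of all 30 depend on that annotation. At 1 RPKM, 2 kb of exon correspond to 26.5 and 26.0 reads.

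Symbols matched GENCODE (GRCh38) for 96.4% of symbols, and coordinates are 1-based. Spans and neighbours come from it, promoter windows from RefSeq on GRCh38.p14. For each gene the window nearest its outer start was used. Libraries were compared with an exact binomial test scaled by the trimmed mean of M values (factor 0.995 for replicate 2) with Benjamini-Hochberg adjustment at 0.05. Read recovery and this test were run on simulated data with Poisson counting error only and with annotated lengths. That run could not cover spread beyond counting or lengths unlike the annotation. In the data 43.8% of matched symbols had a recovered length equal to the annotated one. With n = 2 the spread between libraries may be technical. Python 3.11.15, numpy 2.4.6, scipy 1.17.1, pandas 2.3.3 and bedtools 2.31.1 were used.

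The members and lists were chosen with earlier results of these data known. The rule for named genes took every member, the listed genes of each list, and the neighbours of members at or above 4 RPKM or under 0.1 RPKM and of FHIT and WWOX, of which a few are not reported here. It also took promoters of the 2 highest and 2 lowest members with an entry. The alternatives covered the level, its unit, the span limit, members not listed, the filter, the scaling and the threshold of the library test, and each library alone.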

Additional observations from a re-analysis of the deposited data

How the results depend on the processing

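The number of expressed fragile site genes (14) was 4 at 5 RPKM, 24 at 1 CPM and 27 at 10 recovered reads (13.3%, 80% and 90%, against 42.8%, 78.1% and 80.9% of all entries), and it stayed within 1.5 times at 0.5 RPKM and 1 TPM and without either replicate (14 to 14). Their share minus that of other genes of at least 500 kb (5 percentage points) was 8.62 at 0.5 RPKM, 2.10 at 5 RPKM, 0.797 at 1 TPM, 2.10 at 1 CPM, 8.12 at 10 recovered reads and 4.64 to 4.64 without either replicate. It turned to -20.0 against all other genes and to -3.93 against other genes of at least 300 kb. Those 2 settings compare with shorter genes by construction, and for the other changes the cause was not tested. The median level (0.683 RPKM) was 3.19 in TPM and 11.3 in CPM, which are other units, 0.665 with CCSER1 taken as 0, and 0.670 to 0.710 without either replicate. The library test called 0 fragile site genes under every alternative run. No paired analysis was possible because there is a single group. Depth limits genes of few reads, DMD, NAALADL2 and FHIT above all.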
